A study of Danio rerio with 96 samples.

Results

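Of the 25907 genes in the count table, 79 were taken as cytosolic ribosomal protein genes, 46 of the large subunit (rpl) and 33 of the small subunit (rps). They were chosen by name alone: the symbol, in any letter case, starts with rpl or rps followed by a digit, p or a. The pattern matched 95 genes, and 16 were removed because they are not counted as cytosolic ribosomal proteins here: the rps6k kinases, rps19bp1, the assembly factor rpl7l1, both rps27 copies and rps27l. Every gene ID that carried a kept name was retained, so rpl5 and rps26, for example, each stand for a pair of copies, and rps20 was not analysed here. Of the 79, 77 had counts in all 96 libraries. Rps11l was an exception, with a mean of 18.3 counts.

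Ribosomal proteins surround and brace the ribosomal RNA, and each ribosome holds most of them in a single copy, so their genes are usually expressed together. Their mRNAs are among the most abundant in growing tissue, and their translation is tuned to growth signals. In human and mouse cells, free Rpl5 and Rpl11 also bind Mdm2, the protein that keeps p53 low, which ties ribosome assembly to p53.

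The study asked how X-ray irradiation (XR) and folic acid (FA) act on zebrafish larvae of the albino line slc45a2 b4/b4, with 1 whole larva behind every library. FA+XR larvae were given 200 µM FA from 35 hpf (hours post-fertilization) and 8 Gy of X-rays at 36 hpf, XR larvae the same dose without FA, FA larvae 200 µM FA without irradiation, and Cont larvae neither, with as much plain medium added to the XR and Cont wells. Each group had 6 libraries at 36, 37, 60 and 84 hpf, of which 37, 60 and 84 hpf lie 1, 24 and 48 h after irradiation. Each group was held in a well of its own, so well and treatment cannot be told apart, and whether the irradiated groups of 36 hpf were collected before or after exposure is not stated.

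Library totals ran from 243126 to 16470291 counts, with a median of 3477936, and every library had counts for at least 77 members. The library of 243126 counts, an FA+XR larva of 37 hpf, stood apart from its group in several of the results that follow. The p53 targets listed to describe irradiation were higher in XR than in Cont larvae at 60 hpf for 5 of 6 genes, with a median log2 fold change of 1.76. They were chosen with earlier results of these data known, so they are not an independent check. The share of all genes called higher is given with that comparison further on. The excluded rps27l, a p53 target in human cells, had a log2 fold change of 2.24 in XR vs. Cont larvae at 60 hpf (adjusted p = 1.17e-08, edgeR's quasi-likelihood test).

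The members together took the most counts at the earliest time point. The share over all 24 libraries had a median of 32.8% at 36 hpf, 30.3% at 37 hpf, 20.8% at 60 hpf and 19.4% at 84 hpf. Single members took up to 0.659% of counts in the mean, the value of rplp1, a protein of the flexible stalk that calls elongation factors to the ribosome. It was followed by rpl37 with 0.550%, rps29 with 0.549%, rpl39 with 0.521% and rps23, which lies at the decoding centre, with 0.463%.

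At 36 hpf the share ran from 31.3 to 36.1% in FA+XR larvae, with a median of 32.98%, and from 30.7 to 36.2% in XR larvae, with a median of 32.7%. It ran from 30.7 to 35.3% in FA larvae, with a median of 32.3%, and from 30.4 to 36.5% in Cont larvae, with a median of 33.1%. The 4 groups covered much the same range. At 37 hpf the medians were 30.8% in FA+XR, 30.4% in XR, 29.98% in FA and 29.999% in Cont larvae. The FA+XR library of 243126 counts had 19.9%, and the other 5 of its group began at 30.1%.

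At 60 hpf the 6 FA libraries spread more widely than those of any other group. The share ran from 19.4 to 21.6% in FA+XR larvae (median 20.7%), from 19.3 to 20.4% in XR larvae (19.9%), from 21.1 to 26.6% in FA larvae (23.8%) and from 19.9 to 24.1% in Cont larvae (20.9%). The medians differed by -1.02 percentage points in XR less Cont and 2.93 in FA less Cont, and by -3.16 in FA+XR less FA and 0.797 in FA+XR less XR. Without the shallow libraries, those with a total under 50% of the median at their time, XR less Cont was -1.94 and FA less Cont 1.51. At 84 hpf the share ran from 17.96 to 20.4% in FA+XR, 17.6 to 20.4% in XR, 18.02 to 20.4% in FA and 19.3 to 21.4% in Cont larvae, and every pair of groups overlapped. These shares are descriptions with no test.

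**Figure D1:**
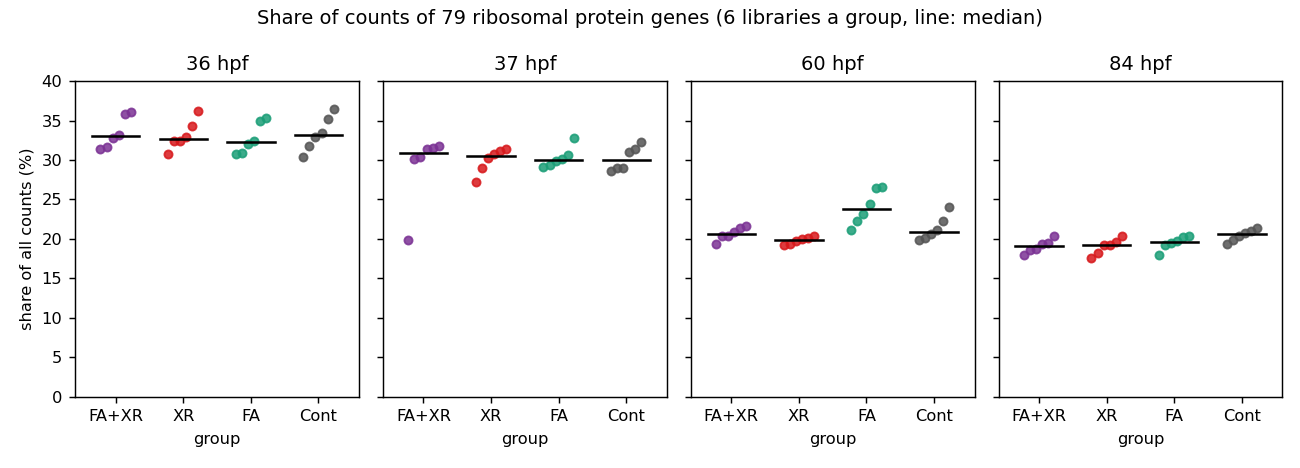
Share of all counts, in percent, taken by the 79 ribosomal protein genes in each of the 96 libraries, by time point and group (points: libraries, lines: group medians of 6). Medians lie between 32.3 and 33.1% at 36 hpf and between 19.1 and 20.6% at 84 hpf, with 1 FA+XR library of 37 hpf at 19.9% and 2 FA libraries of 60 hpf at 26.5 and 26.6%.

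In each group the largest fall of the share came between 37 and 60 hpf. The difference of the median shares, 60 less 37 hpf, was -10.2 percentage points in FA+XR, -10.6 in XR, -6.16 in FA and -9.11 in Cont larvae. That of 84 less 60 hpf was -1.60 points in FA+XR, -0.618 in XR, -4.21 in FA and -0.298 in Cont larvae, where it was -1.11 without the shallow libraries and 0.0955 as a share of the TMM-scaled library size. The whole body changed in other ways over the same interval. In Cont larvae the skeletal muscle markers, here only ckma and actc1b, took a median of 1.84% of counts at 60 hpf, against 0.419% at 37 hpf. The proliferation list took 0.0895%, against 0.142%. Their part in the fall was not tested. In whole larvae a smaller number of cells of a type and less RNA per cell cannot be told apart.

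For single genes the 96 libraries were fitted together with edgeR's quasi-likelihood test, scaled by the trimmed mean of M values (TMM), and a gene was called where the Benjamini-Hochberg adjusted p was below 10%. Of the 78 members tested, 73 were lower and 0 higher at 60 than at 37 hpf in FA+XR larvae (14.4% of all genes tested were called lower), with a median log2 fold change of -0.95. In XR larvae 75 were lower (15.8%), with a median of -1.14, and in FA larvae 64 (13.7%), with a median of -0.50. In Cont larvae 75 were lower and 0 higher (14.3%), with a median of -0.90, against 0.08 over all genes. There 44 of 46 large subunit genes and 31 of 32 small subunit genes were lower, and both subunits had a median of -0.90. When libraries were scaled by total counts alone the median of all genes moved to 0.51 in Cont larvae, and 63 members were still called lower with a median of -0.49, while rplp0 and rpl3 were called higher (0.41 and 0.29). The 14.3% of all genes belongs to TMM scaling, and the share called with total counts is not reported here.

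The size of the step differed widely between members. The largest estimates in Cont larvae were those of rps11l (-1.48, SE 0.39), rpl38 (-1.34, SE 0.19), rpl29 (-1.31), rps15a (-1.30) and rpl39 (-1.29). Rps11l had few counts, so its place at the top is uncertain. Of these genes, rpl38 is known in mouse for its part in the translation of Hox mRNAs. Rpl38 ran from 11.04 to 11.89 log2 CPM (counts scaled to library size with TMM) in FA+XR larvae at 60 hpf, with a median of 11.30, against 11.16 to 13.12 at 37 hpf, with a median of 12.96. In XR larvae it ran from 11.13 to 11.29 (median 11.25) at 60 hpf, against 12.29 to 13.43 (12.86) at 37 hpf. In Cont larvae it ran from 11.01 to 12.002 (11.28) at 60 hpf, against 12.19 to 13.10 (12.75) at 37 hpf. The times did not overlap in XR or Cont larvae, and overlapped in FA+XR larvae only through the library of 243126 counts, the lowest of its group at 37 hpf. In FA larvae rpl38 ran from 11.30 to 13.11 (11.99) at 60 hpf, against 12.84 to 13.03 (12.92) at 37 hpf, and the times overlapped.

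At the other end stood rplp0 (-0.01, SE 0.14), rpl3 (-0.12) and rpsa2 (-0.23), the 3 members not called in Cont larvae, followed by rps2 (-0.34) and rps3 (-0.39). The first anchors the stalk, rpl3 lies near the peptidyl transferase centre, and rpsa2 is named for the protein that is also known as the laminin receptor. These genes code for some of the larger ribosomal proteins and rpl38 and rpl39 for some of the smallest, but transcript length was not analysed here. Rplp0 had medians of 11.71 log2 CPM in FA+XR, 11.60 in XR, 11.68 in FA and 11.56 in Cont larvae at 60 hpf, against 11.61, 11.42, 11.58 and 11.64 in the same order at 37 hpf. The 2 times overlapped in every group. Its log2 fold change in XR larvae was 0.17, and neither rplp0, rpl3 (-0.06) nor rpsa2 (-0.20) was called there. In FA+XR larvae rps2 (-0.23) and rps3 (-0.33) were not called either. The FA+XR libraries of 37 hpf included that of 243126 counts, at 10.09 log2 CPM for rplp0 (nearest 11.50) and 9.03 for rpl3 (nearest 11.06). The FA+XR log2 fold changes without that library are not reported here, so the missing calls do not show a difference between groups.

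The calls of members near 0 depended on the scaling. With total counts alone rplp0 was called higher in XR larvae (0.68), FA larvae (0.24) and FA+XR larvae (0.59), rpl3 (0.45) and rpsa2 (0.31) in XR larvae, and rpl3 (0.38), rpsa2 (0.24) and rps2 (0.20) in FA+XR larvae. Rplp2 was called higher in FA larvae on that scale (0.25), and 61 members were then called lower in FA+XR, 62 in XR and 63 in FA larvae. The shares of all genes called lower on that scale are not reported here either.

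The remaining members of known function lay between these ends. Of the genes whose human counterparts are mutated in Diamond-Blackfan anaemia, rps19 changed by -0.95 in FA+XR, -1.17 in XR and -0.87 in Cont larvae, rpl35a by -1.24, -1.52 and -1.16 and rpl11 by -0.62, -0.98 and -1.11 in the same order. Of the rpl5 copies, ENSDARG00000020197 changed by -0.67, -0.88 and -0.85 and ENSDARG00000015862 by -0.76, -0.96 and -0.73. Rps6, the substrate of the S6 kinases, changed less, by -0.47, -0.52 and -0.51. Rps14, lost in the human 5q- syndrome, changed by -1.17, -1.37 and -1.05, and rps27a, made as a fusion with ubiquitin, by -0.95, -1.10 and -0.90. Every one of these was called lower. Of the stalk proteins, rplp1 changed by -0.98, -1.25 and -0.99, rplp2 by -0.52, -0.74 and -0.60 and rplp2l by -0.87, -0.97 and -0.79. In FA larvae the members named in this paragraph were called lower, from -0.71 for rpl11 to -0.36 for rps6, except rplp2, which had 0.14 and was not called (adjusted p = 0.630, edgeR's quasi-likelihood test).

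**Figure D2:**
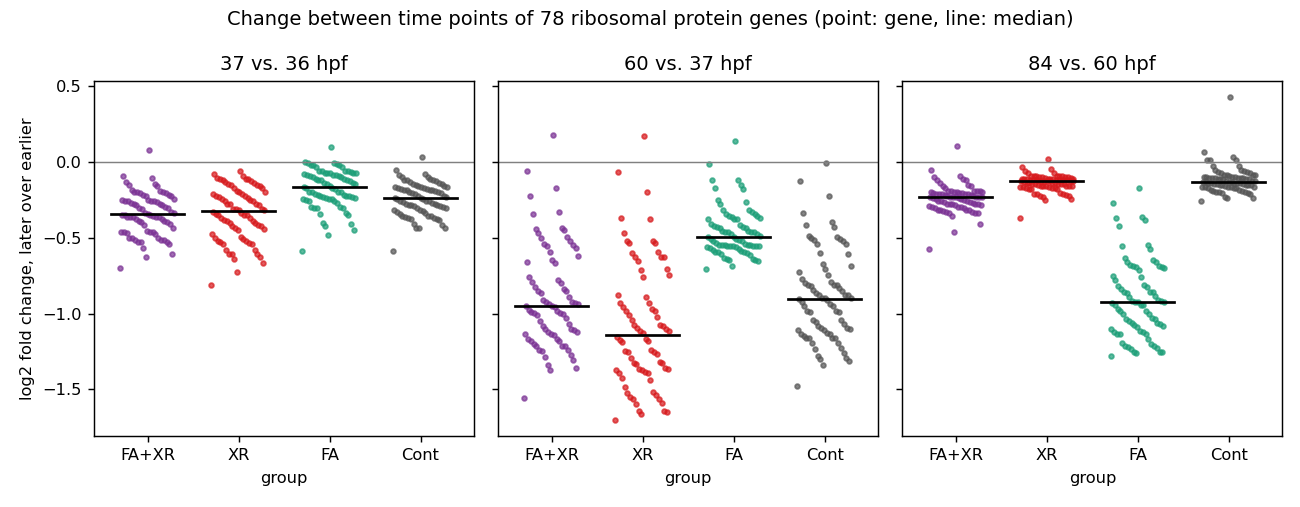
Log2 fold change of each of 78 ribosomal protein genes over the 3 steps between time points, later over earlier, by group (points: genes, lines: medians). Between 60 and 37 hpf the medians are -0.95 in FA+XR, -1.14 in XR, -0.50 in FA and -0.90 in Cont larvae, and between 84 and 60 hpf the FA median is -0.93.

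The order of the members in this step was compared between groups, which share no library. Over the 78 members the log2 fold changes of XR and Cont larvae had a Pearson's r of 0.965 and a Spearman's rho of 0.959, those of FA+XR and XR 0.973 and 0.973, and those of FA+XR and Cont 0.963 and 0.958. The values were lower with FA larvae: 0.793 and 0.794 for FA and Cont, 0.771 and 0.755 for FA and XR, and 0.748 and 0.728 for FA+XR and FA. These are correlations across genes, which are not independent replicates and share annotation and scaling. The step in XR larvae less that in Cont larvae, which is the test of whether irradiation changed it, was called for 0 of 78 members (0.0828% of all genes called), with 0 at an unadjusted p below 0.05 and 0 by DESeq2.

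**Figure D3:**
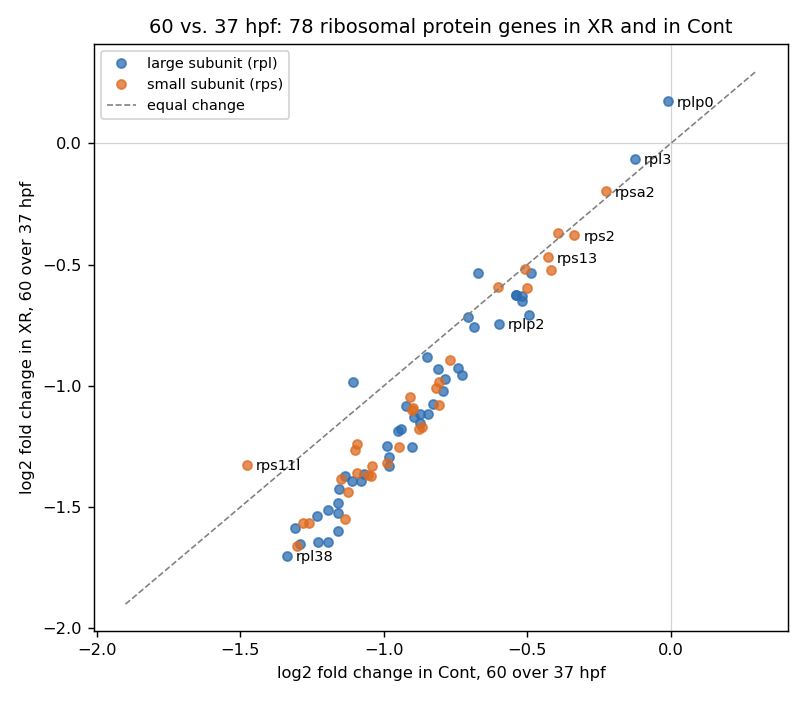
Log2 fold change between 60 and 37 hpf of 78 ribosomal protein genes in XR larvae (y axis) against Cont larvae (x axis), with the line of equal change. Most genes lie below the line (medians -1.14 and -0.90), rplp0 lies near 0 in both, and none of the 78 was called in the difference of the groups.

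Counted by library, the number of members whose time points did not overlap varied between groups. All 6 libraries of 60 hpf lay below all 6 of 37 hpf for 0 members in FA+XR larvae (1.68% of all genes), 64 in XR larvae (4.96%), 5 in FA larvae (4.9%) and 41 in Cont larvae (4.06%). The count of 0 rested on 1 library: without the FA+XR library of 243126 counts it was 77 members, against 10.4% of all genes. In FA larvae the step depended on 2 libraries of 60 hpf described further on, without which 74 members were lower and the median was -0.86.

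With TMM scaling many genes that build or serve the ribosome were also lower at 60 hpf. Of 48 ribosome biogenesis genes tested in Cont larvae, 32 were lower and 1 higher (median -0.81), among them the nucleolar proteins nop16 (-1.39), npm1a (-1.27) and fbl (-1.17), the methyltransferase of box C/D particles. The 1 that was higher was ubtf (0.73), a factor of RNA polymerase I. Of 75 mitochondrial ribosomal protein genes 47 were lower and 1 higher (median -0.55). Of 25 translation factors 9 were lower and 4 higher (median -0.25): naca (-0.97) and btf3 (-0.90), the subunits of the nascent polypeptide-associated complex, were lower, while pabpc1a (0.90) and the elongation factor eef2b (0.77) were higher. Of 6 other ribosomal genes 5 were lower, including fau (-0.84), a fusion of a ribosomal protein with a ubiquitin-like protein, and rack1 (-0.15) was not called. These counts stand beside the same 14.3% of all genes called lower and describe the lists only. The share of all genes called higher is not reported here. Nor are the lists with total counts alone, a scale that raised the median of all genes in this step.

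The single hour between 36 and 37 hpf gave small differences. In Cont larvae 0 members were called by edgeR (0% of all genes), 18 were lower at an unadjusted p below 0.05 and 1 was called by DESeq2. Among the values furthest below 0 were rps13 (-0.58), rps11l (-0.44, SE 0.37), rplp2l (-0.43) and rpl13 (-0.43), and the highest were rps2 (0.04), rpl38 (-0.05), rps21 (-0.08), rpl22l1 (-0.09) and rpl32 (-0.10). In XR larvae 14 members were lower (0.955% of all genes), with rps13 (-0.81, adjusted p = 0.00116, edgeR's quasi-likelihood test) and rpl13 (-0.73) among them. In FA+XR larvae 8 were lower (0.726%), again with rps13 (-0.70, adjusted p = 0.012, edgeR's quasi-likelihood test), and in FA larvae 0 (0.0318%), with 11 at an unadjusted p below 0.05 and 5 by DESeq2. The FA+XR libraries of 37 hpf included that of 243126 counts, and fewer FA+XR calls were left without the shallow libraries. The difference of this step between groups was not fitted, so the unequal counts are not a test of irradiation. The share of all genes at an unadjusted p below 0.05 is not reported here. Rps13, a protein of the small subunit, ran from 9.45 to 11.75 log2 CPM in FA+XR larvae at 37 hpf, with a median of 11.63, against 11.92 to 12.30 at 36 hpf, with a median of 12.19. In XR larvae it ran from 10.99 to 11.65 (11.53), against 11.97 to 12.38 (12.28), in FA larvae from 11.45 to 11.68 (11.56), against 12.02 to 12.32 (12.17), and in Cont larvae from 11.04 to 11.72 (11.64), against 11.90 to 12.34 (12.10). No library of 37 hpf reached any of 36 hpf of its own group. Such a gap was found for 10 members in FA+XR (0.707% of all genes), 17 in XR (0.841%), 18 in FA (0.395%) and 5 in Cont larvae (0.338%).

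After 60 hpf few members were called outside the FA group. In Cont larvae 0 of 78 were called between 60 and 84 hpf by edgeR (7.2% of all genes in either direction), with 0 at an unadjusted p below 0.05, 0 by DESeq2 and a median of -0.13. Among the values furthest below 0 were rpl24 (-0.26), rplp2l (-0.24), rps26 ENSDARG00000037071 (-0.24) and rps21 (-0.23), and the highest were rps11l (0.43, SE 0.38), rplp2 (0.06), rplp0 (0.03), rps3 (0.02) and rps2 (0.02). In XR larvae 0 were called (4.33%), with 1 at an unadjusted p below 0.05 and 0 by DESeq2, and in FA+XR larvae 1 was lower (1.78%), rpl22l1 (-0.57, adjusted p = 0.0368, edgeR's quasi-likelihood test). In FA larvae 76 were lower (10.5%), with a median of -0.93, or 57 with a median of -0.57 without the 2 libraries described next. The step in XR less that in Cont larvae was called for 0 members (0.0127%), 0 at an unadjusted p below 0.05 and 0 by DESeq2.

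Before the groups are compared at 60 hpf, 2 FA libraries have to be described. Those of 5295573 and 2586967 counts had TMM factors of 0.581 and 0.621, whereas the other 22 libraries of 60 hpf lay between 0.848 and 1.22. Their ribosomal protein shares were 26.6 and 26.5%, those of the other 4 FA libraries 21.1, 22.2, 23.2 and 24.4%. The 10 most counted genes took 17.5 and 17.1% of their counts, globins 5.05 and 5.02%, the parvalbumin genes of muscle (pvalb) 4.75 and 4.29%, and the skeletal muscle markers 0.350 and 0.583%. Another FA library, of 767872 counts with a factor of 0.995, had a share of 24.4%, with 15.4% in the 10 most counted genes, 4.57% in globins, 3.87% in pvalb and 0.603% in the muscle markers. In the other 3 FA libraries the 10 most counted genes took 13.6 to 14.1%, globins 2.70 to 3.37%, pvalb 3.10 to 3.31% and the muscle markers 1.83 to 2.31%. The 2 libraries of lowest factor were the 2 highest FA libraries in log2 CPM, which is scaled by the factors, for 75 of 79 members. They were the 2 highest of all 24 libraries for 75 as well. A low factor raises the scaled level of every gene of a library, and the same count over all genes is not reported here. In counts per total they were the 2 highest FA libraries for 50 of 79. The part of the low factors in the results was not tested beyond leaving the libraries out.

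Fitted with the 24 libraries of 60 hpf, 37 of 79 members were lower in FA+XR than in FA larvae (1.06% of all genes called lower, 1.43% in either direction), with a median log2 fold change of -0.61. In FA larvae 35 were higher than in Cont larvae (1.32% called higher, 1.45% in either direction), with a median of 0.60. The 2 comparisons share the FA libraries. Rpl29, a small protein of the large subunit, ran from 10.61 to 11.46 log2 CPM in FA+XR larvae, with a median of 10.91, and from 10.77 to 11.01 in XR larvae, with a median of 10.89. It ran from 10.95 to 12.80 in FA larvae, with a median of 11.61, and from 10.62 to 11.61 in Cont larvae, with a median of 10.84. The FA range overlapped those of all other groups, and no member was separated by group in either comparison. Of all genes, 0.398% were separated as higher and 0.435% as lower in FA+XR vs. FA, and 0.172% and 0.178% in FA vs. Cont. A count of 0 in 79 is near these shares, so it does not describe the members as a set. The log2 fold change of rpl29 was -0.89 in FA+XR vs. FA (SE 0.22, adjusted p = 0.0622, edgeR's quasi-likelihood test) and 0.89 in FA vs. Cont (adjusted p = 0.0887).

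The other members with the largest values came from both subunits. In FA+XR vs. FA they were rps21 (-0.87), rpl38 (-0.87), rpl32 (-0.86), rpl22l1 (-0.84), rpl35 (-0.83), rpl36 (-0.83), rpl37 (-0.82), rpl27 (-0.82) and rps24 (-0.81), and in FA vs. Cont rpl32 (0.89), rps29 (0.87), rpl38 (0.87), rpl36 (0.85), rps24 (0.85), rpl35 (0.84), rpl39 (0.82), rpl22l1 (0.82) and rps21 (0.82). Rpl32 had a median of 10.80 log2 CPM in FA+XR, 10.65 in XR, 11.39 in FA and 10.66 in Cont larvae, with a highest FA library at 12.38. Rplp0 (0.03) and rpl3 (-0.11), not called between 37 and 60 hpf in Cont larvae, were not called in FA+XR vs. FA either.

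Neither count held without the 2 libraries. Then 0 members were called in FA+XR vs. FA and 0 in FA vs. Cont, with medians of -0.21 and 0.21, and 0 were also called in fits of only the 12 libraries compared. Leaving out either of the 2 libraries alone gave 0 in both comparisons. The FA vs. Cont calls, whose lowest adjusted p was 0.0832, were also lost without the Cont libraries of 1566669, 1100461, 2014270, 2236261 or 7902422 counts, without any 1 of the 6 XR libraries, which share the fit, or without the FA+XR libraries of 10842760, 3792315, 3565072 or 16470291 counts. They became 64 without the Cont library of 10806851 counts, where 820 genes were called in all. Without 1 of the other 4 FA libraries they became 46 to 58, with 434 to 745 genes called in all. Those of FA+XR vs. FA fell to 0 without the FA+XR libraries of 3162596, 3792315, 3565072 or 16470291 counts, to 1 without that of 10842760 counts, and became 58 without the FA library of 3075416 counts. In that last fit 600 genes were called in all. Scaled by total counts alone, FA vs. Cont gave 0 calls and a median of 0.18, where the median of all genes was -0.36, and FA+XR vs. FA gave 31. The share of all genes called on that scale is not reported here. At a threshold of 5% rps26 ENSDARG00000037071 (-0.79, adjusted p = 0.0436) was the 1 member called in FA+XR vs. FA. The difference between the effect of irradiation with FA and that without was called for 0 members (0% of all genes), and for 0 by DESeq2. At an unadjusted p below 0.05 there were 28 lower, and the share of all genes at that cutoff is not reported here. The smallest p values of this difference were those of rpl29 (-0.76), rpl35 (-0.68) and rplp2 (-0.63).

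**Figure D4:**
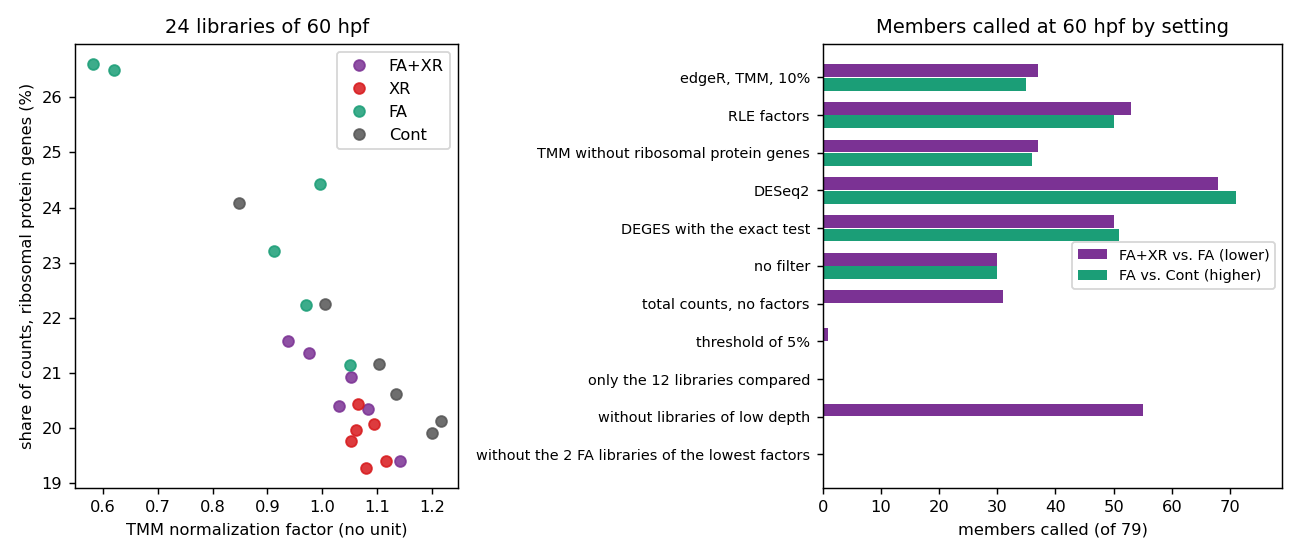
Left, share of counts of ribosomal protein genes (percent) against the TMM normalization factor in the 24 libraries of 60 hpf, where 2 FA libraries lie at 26.6 and 26.5% with factors of 0.581 and 0.621. Right, number of the 79 members called in FA+XR vs. FA (lower) and FA vs. Cont (higher) by setting, from 0 without those 2 libraries to 68 and 71 with DESeq2. The share of all genes called in each setting is not shown.

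Irradiation without FA gave no called member at 60 hpf. In XR vs. Cont 0 of 79 were called by edgeR (0.404% of all genes, 0.257% higher and 0.147% lower), with 0 at an unadjusted p below 0.05 and 0 by DESeq2, although 74 had a log2 fold change below 0 and the median was -0.15. That median was -0.02 without the Cont library of 10806851 counts, and from -0.20 to -0.13 without each other library in turn. The median over all genes is not reported here. The smallest p values were those of rpl22l1 (-0.30), rpl13 (-0.20) and rpl11 (0.24). FA+XR vs. XR gave 0 calls (0%), 0 at an unadjusted p below 0.05 and 0 by DESeq2, with a median of 0.13 and rpl22l1 (0.28) and rpl24 (0.21) among the smallest p values.

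At 84 hpf, 48 h after irradiation, rpl22l1 (ENSDARG00000010244) was the 1 member of 79 called in XR vs. Cont (1.15% of all genes called lower, 0.546% higher, 1.69% in either direction). A count of 1 in 79 is near the share of all genes called lower, so it describes this gene and not the members as a set. The gene codes for a paralogue of Rpl22, a protein of the large subunit that binds RNA on the ribosome surface. Rpl22l1 ran from 8.41 to 8.97 log2 CPM in XR larvae, with a median of 8.78, and from 9.08 to 9.33 in Cont larvae, with a median of 9.25. The groups did not overlap, which was so in this direction for 1.04% of all genes. Its log2 fold change was -0.45 (SE 0.10, adjusted p = 0.00977, edgeR's quasi-likelihood test), with means of 8.74 ± 0.19 in XR and 9.22 ± 0.11 in Cont larvae (SD, n = 6 each), and the exact permutation test gave p = 0.00216, the smallest it can give for 6 against 6. That value follows from the lack of overlap and adds no separate support. The call held in all 21 alternatives, with log2 fold changes from -0.50 to -0.40 and adjusted p values from 2.103e-05 to 0.03804. Total counts alone gave 7 called members in this comparison, 5 lower and rpl11 and rpl19 higher. The share of all genes called there on that scale is not reported here, so the 7 do not describe the members as a set.

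With FA the irradiated larvae gave no call of rpl22l1. It ran from 8.58 to 9.14 log2 CPM in FA+XR larvae, with a median of 8.78, and from 8.78 to 9.19 in FA larvae, with a median of 9.001. The ranges overlapped, the log2 fold change was -0.18 (adjusted p = 0.634, edgeR's quasi-likelihood test) and the exact permutation test gave p = 0.113. With total counts alone it was called, with -0.29 (adjusted p = 0.00911), and under the other settings its adjusted p by edgeR or DESeq2 lay between 0.209 and 0.726. The difference between the irradiation effects with and without FA was 0.28 with an unadjusted p of 0.0598 (adjusted p = 0.997), so the effects were not shown to differ. In FA vs. Cont larvae rpl22l1 was not called, and the lowest adjusted p of any member was 0.933 (edgeR's quasi-likelihood test). The exact permutation test, which was not adjusted, gave p = 0.013 there, with rpl22l1 lower in FA larvae and overlapping ranges.

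Set against its paralogue, rpl22l1 took a smaller part of the pair in the irradiated larvae at 84 hpf. Its part of the rpl22l1 and rpl22 counts ran from 21.9 to 24.9% in FA+XR (median 23.1%), 20.97 to 23.4% in XR (22.1%), 24.7 to 26.4% in FA (25.7%) and 25.4 to 26.8% in Cont larvae (26.2%). XR and Cont did not overlap, and FA+XR and FA overlapped only through the highest FA+XR library. At 60 hpf the medians were 27.4% in FA+XR, 26.3% in XR, 28.9% in FA and 28.04% in Cont larvae, and at 37 hpf 29.2, 29.5, 30.3 and 30.4% in the same order, with overlapping ranges at both times. Rpl22 itself had a log2 fold change of -0.14 in XR vs. Cont at 84 hpf and was not called. These parts are a description with no test, and they do not depend on how libraries were scaled.

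**Figure D5:**
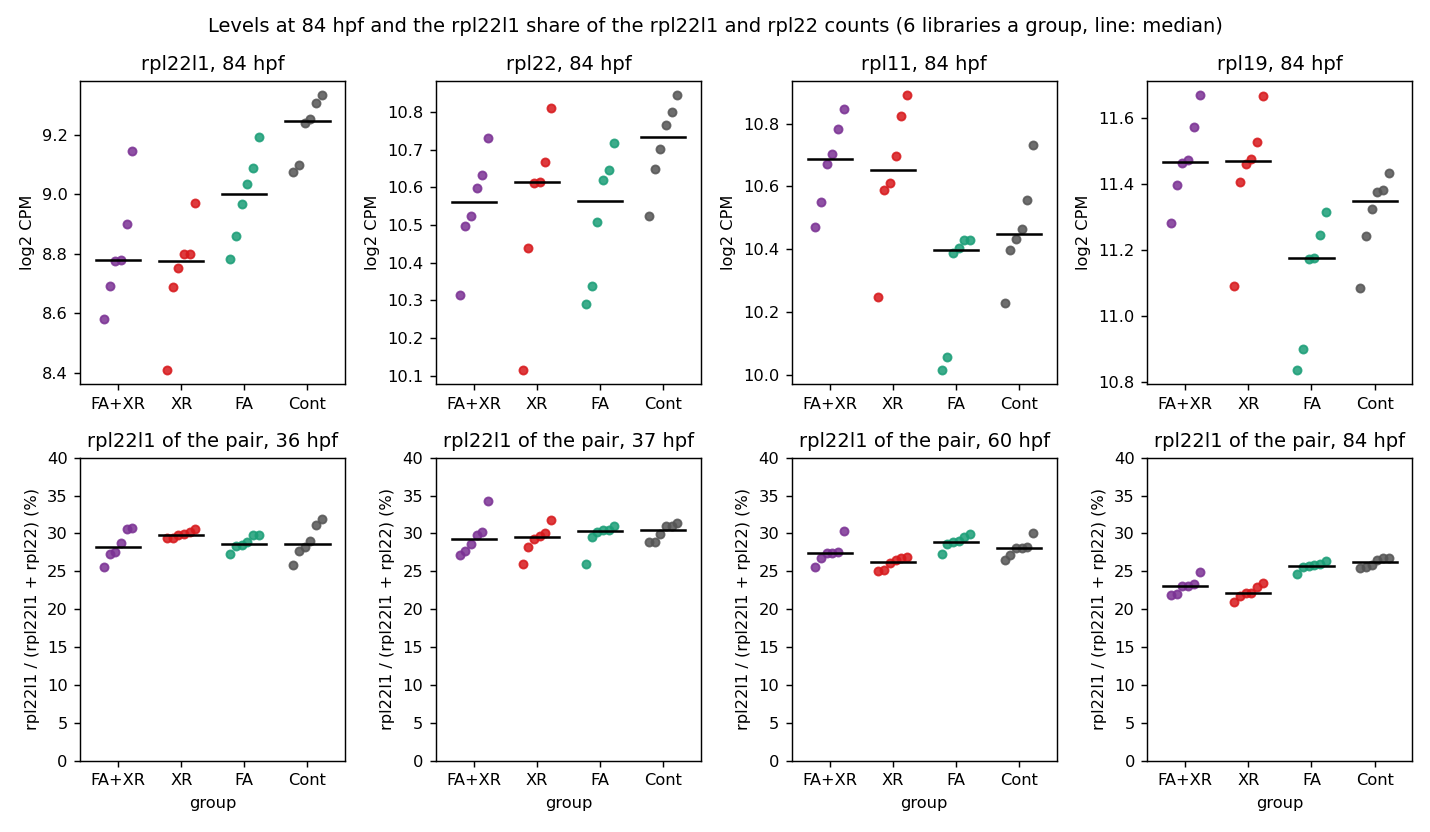
Top, log2 CPM of rpl22l1, rpl22, rpl11 and rpl19 at 84 hpf by group, where the y axes do not start at 0. Bottom, percent of the rpl22l1 and rpl22 counts taken by rpl22l1 at 4 time points (points: libraries, lines: medians of 6). At 84 hpf the medians are 23.1% in FA+XR, 22.1% in XR, 25.7% in FA and 26.2% in Cont larvae.

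In FA+XR vs. FA larvae at 84 hpf, 2 members were higher (0.49% of all genes called higher), rpl11 and rpl19. Rpl11 ran from 10.47 to 10.85 log2 CPM in FA+XR larvae, with a median of 10.69, and from 10.01 to 10.43 in FA larvae, with a median of 10.40. The groups did not overlap (0.539% of all genes), the log2 fold change was 0.37 (SE 0.10, adjusted p = 0.0734, edgeR's quasi-likelihood test) and the exact permutation test gave p = 0.00216, which follows from the lack of overlap. Rpl19, a protein that bridges the subunits, ran from 11.28 to 11.67 in FA+XR larvae, with a median of 11.47, and from 10.84 to 11.31 in FA larvae, with a median of 11.17. The ranges overlapped at 1 end, the log2 fold change was 0.36 (SE 0.09, adjusted p = 0.0553, edgeR's quasi-likelihood test) and the exact permutation test gave p = 0.00433.

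Both calls were lost at a threshold of 5%, with DEGES normalization and the exact test of edgeR, and without the libraries of low depth. Without the FA library of 680281 counts, the FA library of 423265 counts, or the FA+XR libraries of 3857260 or 2984685 counts, 0 members were called, and without the FA+XR libraries of 3559299 or 3440757 counts 1 was. Without FA the same genes had log2 fold changes of 0.20 (rpl11, adjusted p = 0.569) and 0.16 (rpl19, adjusted p = 0.691) in XR vs. Cont by edgeR's quasi-likelihood test. Rpl11 ran from 10.25 to 10.89 log2 CPM in XR larvae, with a median of 10.65, and from 10.23 to 10.73 in Cont larvae, with a median of 10.45. At 60 hpf rpl11 and rpl19 had 0.24 and 0.20 in XR vs. Cont, and -0.15 and -0.22 in FA+XR vs. FA, and none of these 4 values was called.

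No other member was called at 84 hpf with TMM scaling. In XR vs. Cont 77 of 79 had a log2 fold change below 0, with a median of -0.12. Without the shallow XR library of 700645 counts the median was -0.05, and without any other 1 library it lay between -0.17 and -0.09. The median over all genes is not reported here. Rpl5 had -0.03 and -0.12 for its copies ENSDARG00000020197 and ENSDARG00000015862, rplp0 -0.10, rplp1 -0.08, rplp2 -0.05, rplp2l -0.12, rps6 -0.11, rpsa2 -0.13, rps19 -0.11, rps14 -0.13, rpl35a -0.13 and rps27a -0.10. FA+XR vs. XR gave 0 calls by edgeR (0.0062%), 0 at an unadjusted p below 0.05 and 0 by DESeq2, with the smallest p values in rps11l (0.50), rpl5 ENSDARG00000015862 (0.09) and rpl26 (0.08). FA vs. Cont gave 0 calls (0.0248%) and 0 by DESeq2, with a median of -0.18 and rpl37 (-0.26) and rps16 (-0.23) among the smallest p values. There 12 were lower at an unadjusted p below 0.05, and the share of all genes at that cutoff is not reported here. The FA by XR interaction gave 0 calls (0%), 0 at an unadjusted p below 0.05 and 0 by DESeq2, and its smallest p value was that of rpl22l1 (0.28).

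At 36 and 37 hpf no member was called in any comparison of groups by edgeR. Where edgeR's quasi-likelihood test called 0 members between 2 groups, at these and the later times, DEGES with the exact test of edgeR also called 0. At 36 hpf XR vs. Cont (0.0207% of all genes called, 0.00691% lower) had 77 of 78 members above 0 with a median of 0.17, but 28 above 0 and a median of -0.01 with total counts alone. At an unadjusted p below 0.05 there were 49, and DESeq2 called 4. The share of all genes at that cutoff is not reported here for any comparison, so such counts do not describe the members as a set. The log2 fold changes in XR vs. Cont were 0.27 for rplp2, 0.24 for rpl19 and 0.24 for rplp1, the 3 with the smallest p. In FA vs. Cont (0.0138%) all 78 were above 0 with TMM and 16 with total counts, 11 had an unadjusted p below 0.05 and 0 were called by DESeq2, with rpl32 at 0.23, rplp1 at 0.19 and rps21 at 0.19. FA+XR vs. FA (0%) and FA+XR vs. XR (0%) had 0 members at an unadjusted p below 0.05 and 0 by DESeq2, with the smallest p values in rps2 (0.13), rps29 (-0.11) and rpl29 (-0.10) and in rpl22l1 (-0.15), rplp2l (-0.12) and rpl35 (-0.11). The interaction (0%) had 18 lower at an unadjusted p below 0.05 and 1 by DESeq2, led by rpl19 (-0.27), rps28 (-0.29) and rplp1 (-0.26).

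At 37 hpf, 1 h after irradiation, XR vs. Cont (0.104% of all genes called, 0.0556% higher and 0.0487% lower), FA+XR vs. FA (0.118%, 0.0556% higher and 0.0626% lower), FA+XR vs. XR (0%), FA vs. Cont (0%) and the interaction (0%) each had 0 members at an unadjusted p below 0.05 and 0 by DESeq2. The smallest p values were those of rpl32 (0.25), rplp0 (-0.22) and rpl3 (-0.23) in XR vs. Cont and of rpl11 (-0.23), rps2 (-0.22) and rpl5 ENSDARG00000015862 (-0.21) in FA+XR vs. FA. In FA+XR vs. XR they were rpl32 (-0.25), rps11l (0.37) and rpl11 (-0.15). They included the rpl5 copies (0.20 and 0.19) in FA vs. Cont, and rpl32 (-0.37) and rpl11 (-0.33) in the interaction. Without the shallow libraries 0 members were called in each of these comparisons as well. With the FA+XR library of 243126 counts left out, the median log2 fold change of the members was 0.04 in FA+XR vs. FA. It was 0.12 in FA+XR vs. XR. In both comparisons the median stayed below 0 when any other library was left out instead.

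Another pair of related genes shifted with age. Rplp2, a stalk protein, took a median of 33.5, 34.5, 40.7 and 43.0002% of the rplp2 and rplp2l counts at 36, 37, 60 and 84 hpf in FA+XR larvae, and 31.6, 36.2, 40.3 and 44.3% in XR larvae. In FA larvae the medians were 31.3, 33.4, 41.3 and 43.9%, and in Cont larvae 30.6, 35.0, 38.1 and 42.9%, so the median part of rplp2 was higher at each later time in every group. The ranges of 36 and 37 hpf overlapped in FA+XR, FA and Cont larvae. At 60 hpf the FA libraries of 5295573 and 2586967 counts were the highest, with 44.7 and 46.2%. These parts are a description with no test. Reads of near-identical copies can be split between them in counting, so the levels of single copies of rpl5 and rps26 are uncertain.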

How the data were processed

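RNA was taken from 96 single larvae, 6 for each of 4 groups at 4 time points, and sequenced by the authors in 150-bp paired-end reads. The deposited table holds estimated counts per Ensembl gene without normalization, which the authors obtained on the cDNA set of GRCz11, and the quantifier is not given in the sources used here. Its columns were assigned to groups from the authors' table of library properties, and 3 values that were not whole were rounded. Symbols came from the reference table of gene names (23608 IDs), in lower case. The members, the gene lists and the tests were chosen with earlier results of these data known.

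Groups of a time point were fitted together (24 libraries) with edgeR 4.0.16 (R 4.3.3, limma 3.58.1), TMM factors and the quasi-likelihood test, for genes whose mean count reached 2.5. The steps between time points came from 1 fit of all 96 libraries. The p values were adjusted by Benjamini and Hochberg over all genes tested, and a gene was called below 10%, the threshold of the study. They measure the spread between larvae and do not cover wells. Counts of members at an unadjusted p below 0.05 stand without the share of all genes at that cutoff. Levels are log2 CPM with a prior count of 2. Exact permutation tests were two-sided, were run only on genes already named, and were not adjusted for the choice of those genes. The share of counts is the sum over members divided by the library total and has no test. No 2 libraries held the same counts.

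The text names the called members of a group contrast (up to 10 by size), otherwise the 3 of smallest p, the 5 largest and 5 smallest log2 fold changes of each step in Cont larvae, a fixed set of members of known role, and the 5 of highest share, and a few genes that the rule selects are not reported here. Rpl11 and rpl19 at 60 hpf, rps13 by library, rps26 at 60 hpf, and rplp0 and rpl3 in the FA contrasts of 60 hpf were added after their values were seen. Alternatives were DESeq2 1.42.0, RLE factors, TMM without the members, total counts, no filter, fits of 12 libraries, DEGES with the exact test of edgeR in place of TCC, a threshold of 5%, omitting shallow libraries (totals below 50% of the time point's median), omitting 1 library at a time, and, for shares, other denominators and members. Tests were checked on simulated data.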

Additional observations from a re-analysis of the deposited data

Results flagged for a closer look

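In 8 of the 60 sets of 6 libraries examined, 1 library lay far from the other 5. Its gap to the nearest one, divided by the range of the 6, exceeded Dixon's critical value. In independent sets chance alone gives about 1 in 20, but these sets reuse the same libraries, so the 8 cannot be set against that rate. Of the 8 sets, 5 belong to the FA+XR library of 37 hpf with 243126 counts, the lowest total of the series. Its ribosomal protein share was 19.9% (nearest 30.1%), and its levels were 10.09 log2 CPM for rplp0 (nearest 11.50), 9.03 for rpl3 (nearest 11.06), 11.16 for rpl38 (nearest 12.64) and 11.27 for rpl39 (nearest 12.82). At 60 hpf the FA library of 767872 counts had 10.95 log2 CPM of rplp0 (nearest 11.55) and 10.46 of rpl3, and the FA+XR library of 3559535 counts had 11.26 of rplp0 (nearest 11.57). The part of depth in these values was not tested.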

How the results depend on the processing

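No paired analysis was possible because no replicate numbers are attached to the count columns, so the planned replicate block was not run. Leaving out the 2 FA libraries was chosen after seeing the data. Counts of called members moved by over 1.5 times in these cases. The shares of all genes called under the alternative settings are not reported here. With DESeq2 there were 4 in XR vs. Cont and 1 in the interaction at 36 hpf, 68 in FA+XR vs. FA and 71 in FA vs. Cont at 60 hpf, and, between 36 and 37 hpf, 22 in FA+XR, 26 in XR, 5 in FA and 1 in Cont larvae, with 2 between 60 and 84 hpf in FA+XR larvae. At 5% there were 1 in FA+XR vs. FA and 0 in FA vs. Cont at 60 hpf, 0 in FA+XR vs. FA at 84 hpf and 3 in FA+XR larvae between 36 and 37 hpf. Fits of 12 libraries, and leaving out the 2 FA libraries, gave 0 in both FA comparisons of 60 hpf, and without those libraries there were 2 in FA+XR larvae between 60 and 84 hpf. Total counts gave 0 in FA vs. Cont at 60 hpf, 7 in XR vs. Cont at 84 hpf, 34, 25, 9 and 12 in FA+XR, XR, FA and Cont larvae between 36 and 37 hpf, and 1 in XR and 4 in FA+XR larvae between 60 and 84 hpf. RLE factors gave 16, 2 and 1 in FA+XR, FA and Cont larvae between 36 and 37 hpf and 2 in FA+XR larvae between 60 and 84 hpf. Without shallow libraries there were 0 in FA vs. Cont at 60 hpf, 0 in FA+XR vs. FA at 84 hpf, 7 in FA and 2 in FA+XR larvae between 36 and 37 hpf, and 4 in Cont and 8 in FA+XR larvae between 60 and 84 hpf. DEGES gave 0 in FA+XR vs. FA at 84 hpf, and TMM without the members and no filter gave 5 and 3 in FA+XR larvae between 36 and 37 hpf. Leaving out each library gave 0 to 58 in FA+XR vs. FA and 0 to 64 in FA vs. Cont at 60 hpf, and 0 to 2 in FA+XR vs. FA at 84 hpf. As shares of effective library size, the medians at 60 less 37 hpf were -21.3 points in FA+XR, -20.9 in XR, -15.0 in FA and -17.0 in Cont larvae, those at 84 less 60 hpf -2.64 in FA+XR and -7.86 in FA larvae, and FA less Cont was 6.01 at 60 and -1.94 at 84 hpf. Within 1 SD, XR less Cont at 60 hpf was -0.277 and XR at 84 less 60 hpf -1.03 on that scale. FA+XR less FA there was -5.14 at 60 hpf and 0.0736 at 84 hpf. Of the log2 fold changes of single genes, 1197 kept their direction and side of the threshold under the settings other than leaving out 1 library, 95 lost and 20 gained a call, and the others turned sign, while leaving out 1 library kept 723, lost 150 calls and turned 3. Total counts did so between 37 and 60 hpf for rps3 (0.0320), rps2 (0.0797), rpsa2 (0.19), rpl3 (0.29) and rplp0 (0.41) in Cont, rps6 (0.00681) and rpsa2 (0.31) in XR and rpsa2 (0.24) in FA+XR larvae, and also for rpl3 in XR (0.45), rpl3 (0.38) and rps2 (0.20) in FA+XR and rplp0 (0.24) in FA larvae, and between 36 and 37 hpf for rps21 (0.00845) and rpl38 (0.0344) in Cont larvae. Rplp0 in Cont larvae at 60 vs. 37 hpf was 0.0852 with RLE factors, 0.0708 with no filter and 0.0847 with DESeq2. Without shallow libraries rpl32 (0.0531), rpl22l1 (0.0367), rps21 (0.0568) and rpl38 (0.0659) turned between 36 and 37 hpf and rps2 (-0.11), rps3 (-0.0830), rplp0 (-0.0725) and rplp2 (-0.0844) between 60 and 84 hpf in Cont larvae, as did rpl11 in FA+XR vs. XR at 37 hpf (0.00685) and rpl5 ENSDARG00000020197 (0.0357) and rplp2 (0.0273) in XR vs. Cont at 84 hpf. With no filter rps2 and rps3 were -0.00627 and -0.00510 between 60 and 84 hpf in Cont larvae. Leaving out each library gave -0.201 to 0.0312 for rpl11 in FA+XR vs. XR at 37 hpf, the highest without the FA+XR library of 243126 counts, and, in XR vs. Cont at 84 hpf, -0.0832 to 0.0406 for rpl5 ENSDARG00000020197 and -0.119 to 0.0322 for rplp2, both highest without the XR library of 700645 counts. The cause was not tested in any of these.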
